A study of Mus musculus with 9 samples.

Results

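Aminoacyl-tRNA synthetases were followed through liver RNA sequencing of 9 mice. All protein-coding genes whose symbol is 1 letter followed by ars, ars1 or ars2, together with Eprs, Farsa and Farsb, were taken from the deposited table, which gave 37 genes of 42188. Of these, 20 encode cytosolic enzymes and 17, with symbols ending in 2, encode mitochondrial ones. Each enzyme joins an amino acid to its tRNA and so supplies the ribosomes of one compartment. Kars and Gars are the exceptions, since each of these genes makes the lysine or glycine enzyme for both compartments. Eprs charges both glutamate and proline, Farsa and Farsb are the subunits of a single enzyme, and 8 of the cytosolic enzymes (Dars, Eprs, Iars, Kars, Lars, Mars, Qars and Rars) sit in the multisynthetase complex. Many cytosolic synthetase genes are known targets of ATF4, the transcription factor of the amino acid and endoplasmic reticulum stress responses, and Wars is a classical interferon gamma-induced gene of the immune response. Mitochondrial synthetases are encoded in the nucleus and imported.

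Each group held 3 mice, described in the labels as wild-type C57BL/6J males aged 8 weeks and weighing 20 to 25 g, and assigned at random. The Control group had phosphate-buffered saline by tail vein. The ConA group had concanavalin A by tail vein at 20 mg/kg, a lectin used to model T cell-driven hepatitis. The MSA_ConA group had MSA, which the study title points to as mesaconate, at 250 mg/kg into the peritoneum, followed 6 h later by the same concanavalin A dose, and livers were taken 12 h after concanavalin A. The groups ask whether concanavalin A changed the liver transcriptome and whether MSA altered that change.

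Sequence near the start of a gene is shown because 5 of the cytosolic members carry the same short element there. Promoter windows of 300 bases (250 before and 50 after the start, RefSeq, GRCm38.p6) were found for 27 of the 37 genes, 13 cytosolic and 14 mitochondrial. Wars, Vars, Cars, Hars and Rars were among the genes with no window, so their promoters were not searched. The letters TGATGNAA, read on both strands, form the composite element bound by ATF4 with C/EBP factors. They occurred in 5 of 13 cytosolic genes and 0 of 14 mitochondrial ones, against 3.97% of 32851 windows in all. In the stretches below, written 5′ to 3′ on the strand of the gene, capitals mark the match, which for all but Yars lies on the opposite strand.
Yars, chr4:129189866-129189925, plus strand: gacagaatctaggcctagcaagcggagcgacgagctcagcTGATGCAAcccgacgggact
Gars, chr6:55037931-55037990, plus strand: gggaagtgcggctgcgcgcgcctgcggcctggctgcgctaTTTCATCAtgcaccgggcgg
Aars, chr8:111033690-111033749, plus strand: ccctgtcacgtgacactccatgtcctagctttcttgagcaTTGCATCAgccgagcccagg
Aars, chr8:111033811-111033870, plus strand: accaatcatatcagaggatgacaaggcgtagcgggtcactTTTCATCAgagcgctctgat
Iars, chr13:49682097-49682156, plus strand: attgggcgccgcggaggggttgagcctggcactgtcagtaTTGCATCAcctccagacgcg
Tars, chr15:11399654-11399713, minus strand: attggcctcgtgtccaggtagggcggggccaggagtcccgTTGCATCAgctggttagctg
The matches lay close to the start in 4 of these genes, beginning 4 bases after it in Yars, 8 after it in Iars, 15 before it in Tars and 30 before it in Gars. Aars held a pair, 112 bases before and 10 bases after the start. A pair of GAAA runs with 2 free bases between them, the interferon-stimulated response element type, was found in Qars (3.44% of all windows). A match describes letters and not binding.

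Libraries held 13294600 to 17276391 counts. Levels are given as CPM, normalised counts relative to a library total adjusted by edgeR's TMM method (a trimmed mean of log ratios). The adjusting factors were 0.571 to 0.95 in the 3 libraries numbered 1 and 1.11 to 1.26 in the 6 numbered 2 and 3, so the choice of scaling bears on any comparison between these classes. Libraries numbered 1 also stood apart in transcripts of sex and strain, although the labels give 1 sex and strain for all. Xist, the RNA of the inactive X chromosome in females, measured at most 0.49 CPM in number 1 and 667 to 1132 CPM in numbers 2 and 3. Nnt, which carries a partial deletion in C57BL/6J mice, ranged from 29.8 to 34.7 CPM among the libraries numbered 1 but from 168 to 266 CPM elsewhere. The urinary protein gene Mup21 ranged from 251 to 670 CPM against at most 1.44 CPM. Xist in numbers 2 and 3 goes against the label male. In every group 1 library thus differed from the other 2 in these transcripts, and effects are given with and without this division. The liver identity itself was clear in all 9, with Alb, the serum albumin gene, at 64323 to 100260 CPM.

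In control livers the cytosolic set was the more abundant per length. Summed over genes, the cytosolic level was 342, 269 and 310 CPM per kb in Control 1, 2 and 3, and the mitochondrial level was 114, 99.3 and 103 CPM per kb. By the median of the 3 controls on that per-kb scale, the highest single genes were Nars (40.2 CPM per kb), Aars (33.5), Tars (33.4), Kars (27.8) and the mitochondrial Fars2 (24.9). The lowest was Mars2 at 0.49 CPM per kb, whose deposited gene model of 11294 bases is the denominator. Aars and Tars differed by less than the spread of the controls.

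The 6 libraries numbered 2 and 3 were close to each other for every synthetase, treated or not. The ratio of the highest to the lowest of these 6 ran from 1.11 for Gars to 1.64 for Farsa. The plot of levels by library shows how pale these 6 columns are beside the 3 numbered 1.

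**Figure D1:**
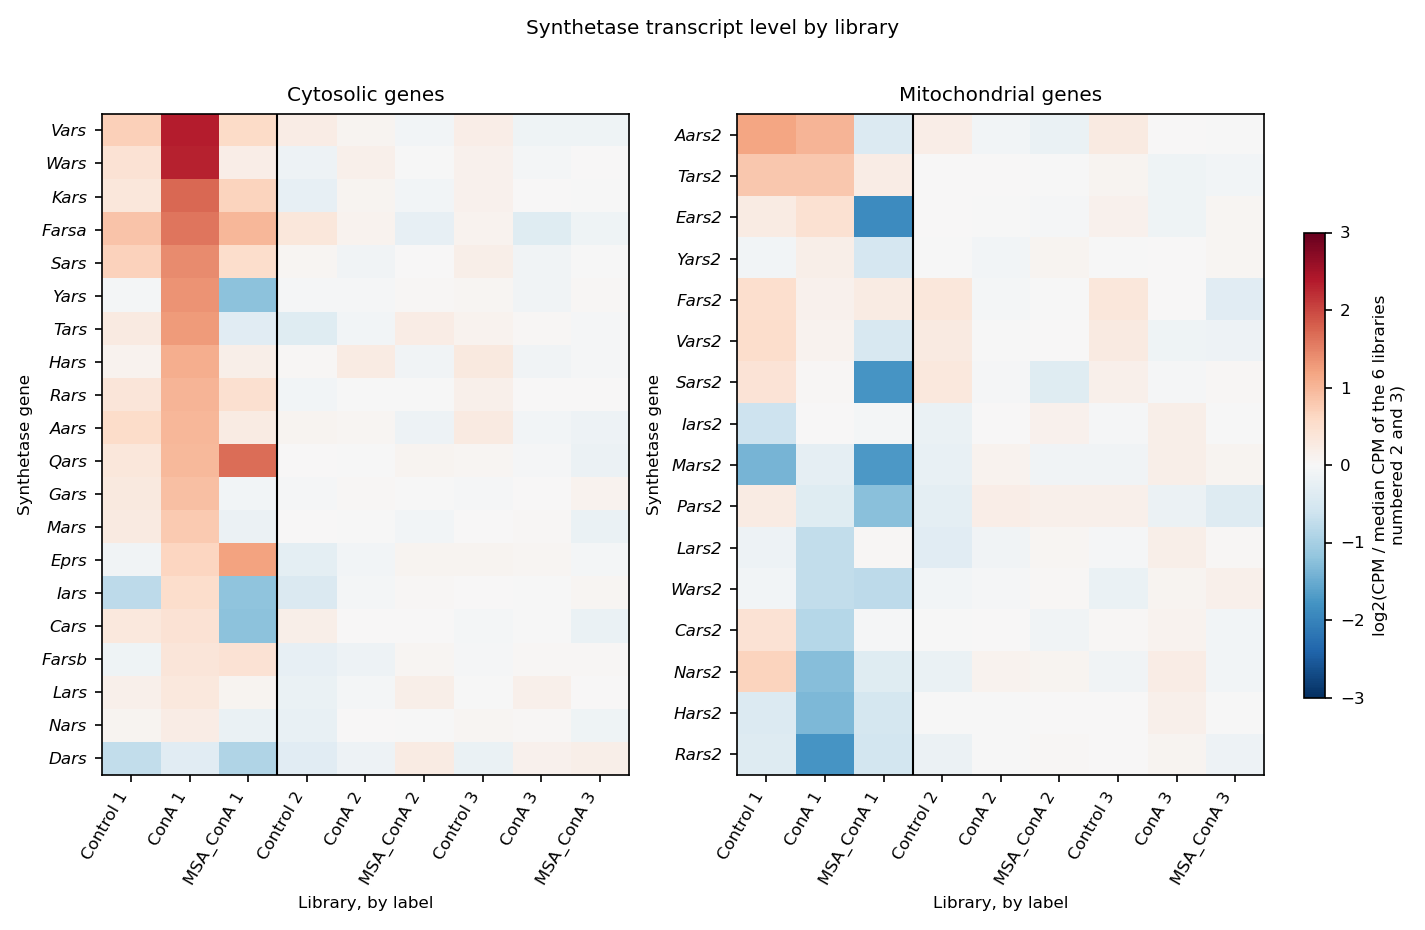
Level of single synthetase genes (rows) in each library (columns), as the log2 ratio of CPM to the median of that gene over the 6 libraries numbered 2 and 3; red is above and blue below that median, and the black line separates number 1 from the rest. ConA 1 is red for most of the cytosolic genes and blue for many of the mitochondrial ones, while the 6 right-hand columns lie within 1.64-fold for every gene.

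Summed over the 20 cytosolic genes, the level was 601 CPM per kb in ConA 1 but 292 and 291 CPM per kb in ConA 2 and 3, and it was 326, 295 and 284 CPM per kb in MSA_ConA 1, 2 and 3. Summed over the 17 mitochondrial genes, it was 90.1, 92.7 and 97.8 CPM per kb in ConA and 78.5, 94.1 and 89.0 CPM per kb in MSA_ConA. ConA 1 was thus the highest of all 9 libraries for the cytosolic set and MSA_ConA 1 the lowest for the mitochondrial set. With library totals these places held, but the levels moved. The cytosolic level was then 404, 349 and 341 CPM per kb in ConA and 186, 346 and 358 in MSA_ConA. The mitochondrial level was 60.6, 111 and 115 CPM per kb in ConA and 44.8, 110 and 112 in MSA_ConA. MSA_ConA 1 was then lowest for the cytosolic set too. The ratio of cytosolic to mitochondrial level within a library, which no scaling can alter, was 3.00, 2.71 and 3.01 in Control, 6.66, 3.15 and 2.97 in ConA, and 4.16, 3.14 and 3.19 in MSA_ConA. Only ConA 1 and MSA_ConA 1 lay above 3.19. Group means were 2.91 ± 0.170 (SD, n = 3) for Control, 4.26 ± 2.08 (SD, n = 3) for ConA and 3.49 ± 0.575 (SD, n = 3) for MSA_ConA, so the groups overlapped and the large SD in ConA came from 1 library.

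**Figure D2:**
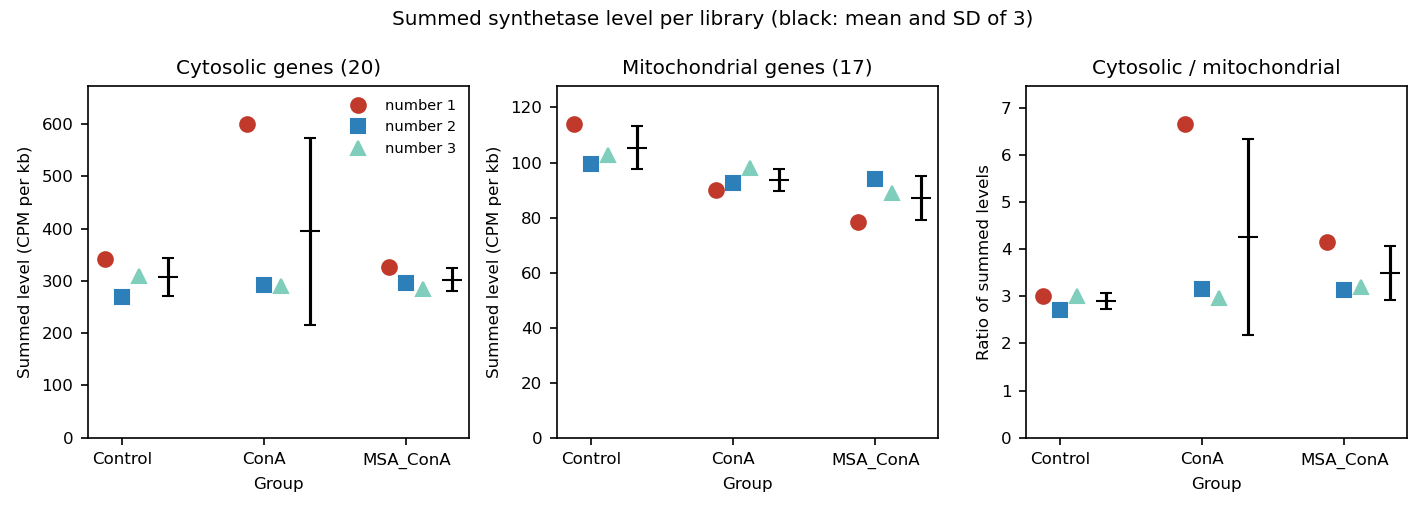
Summed level of the 20 cytosolic genes (left, CPM per kb), of the 17 mitochondrial genes (middle, CPM per kb) and their ratio (right) in each library, by group; symbols give the library number, and black marks the mean and SD of the 3 libraries. With TMM scaling, ConA 1 stands at a cytosolic level of 601 CPM per kb. Its ratio is 6.66, while the 6 libraries numbered 2 and 3 have ratios from 2.71 to 3.19.

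Across all 3 libraries per group, no synthetase passed the test in any group comparison. In ConA against Control, edgeR's quasi-likelihood test called 0 of 37 synthetases and 0 of 14603 genes (0%), with a Benjamini-Hochberg adjusted p below 0.05 as the threshold. At an unadjusted p under 0.05 it counted 0 of 37 and 563 genes (3.86%), and DESeq2 called 2 genes, neither a synthetase. All 20 cytosolic estimates were positive, with a median log2 fold change of 0.28 against 0.07 over all genes, and 12 of 17 mitochondrial ones were negative, with a median of -0.14. With library totals, 16 of 20 cytosolic estimates were positive (median 0.09) and 15 of 17 mitochondrial ones negative (median -0.18). With TMM, that direction rested on ConA 1. Without it, 14 of the 20 cytosolic estimates were negative and the median was -0.07. The highest estimate, for Wars, was 1.07 (SE 0.59, adjusted p = 1.00 by edgeR).

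MSA_ConA against ConA and against Control, which share libraries with the first comparison and with each other, also gave 0 of 37 synthetases and 0 genes (0% in both). Unadjusted, 248 genes (1.70%) and 730 genes (5.0%) fell under 0.05, with 0 of 37 synthetases in either, and DESeq2 called 0 and 55 genes, again with no synthetase. Against ConA, 16 of 20 cytosolic estimates were negative (median -0.40), but without ConA 1 the split was 10 to 10 and the median 0.00. Against Control, 14 of 17 mitochondrial estimates were negative (median -0.29), and without MSA_ConA 1 this was 10 of 17 (median -0.14).

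Within the libraries numbered 2 and 3, no synthetase passed either. ConA against Control called 0 of 37 synthetases and 0 of 14851 genes (0%), and unadjusted 2 of 37 against 1725 genes (11.6%). The 2 were Fars2 (log2 fold change -0.38, SE 0.15, adjusted p = 0.42 by edgeR) and Vars2 (-0.35, SE 0.14, adjusted p = 0.42 by edgeR), the mitochondrial phenylalanine and valine enzymes. Fars2 measured 37.5 and 37.6 CPM in Control 2 and 3 and 28.4 and 29.8 CPM in ConA 2 and 3. Cytosolic estimates were 10 positive and 10 negative, from -0.36 to 0.25. MSA_ConA against ConA within these numbers likewise called 0 synthetases and 0 genes (0%), and unadjusted 0 of 37 against 767 genes (5.16%), with estimates from -0.15 to 0.23. MSA_ConA against Control within these numbers also called 0 of 37 synthetases and 0 genes (0%), and unadjusted 4 of 37 against 3578 genes (24.1%). The 4 were Fars2 (-0.51), Vars2 (-0.34), Vars (-0.31) and Dars (0.48), with adjusted p = 0.11, 0.19, 0.21 and 0.13 by edgeR. They are named after their values were seen.

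Whether an effect differed between library number 1 and numbers 2 and 3 was tested next, with a mean for each group and number class in 1 fit over all genes. Here the lone number 1 library of a group is assumed to vary like the libraries numbered 2 and 3, and 3 residual degrees of freedom remain. The value is the log2 effect in number 1 minus that in numbers 2 and 3. For ConA against Control, 8 synthetases were higher in number 1 (background 15.7% of genes) and 5 were lower (15.4%). All 8 were cytosolic and all 5 mitochondrial. All 20 cytosolic differences were above zero, with a median of 0.70 against -0.09 over all genes, and the mitochondrial median was -0.10. With library totals in place of TMM, which moves the median of all genes by -0.53, 14 of 20 cytosolic and 1 of 17 mitochondrial differences were above zero, and the calls became 3 higher and 7 lower, with 1325 genes higher and 4145 lower in place of 2287 and 2250. The higher calls were again all cytosolic and the lower ones all mitochondrial. Without ConA 3, 6 calls were left, Vars, Wars and Yars higher and Cars2, Nars2 and Rars2 lower.

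The largest differences among cytosolic members belonged to enzymes outside the multisynthetase complex. Vars, the valine enzyme that associates with elongation factor eEF1 (chr17:36474773-36490068 in the C57BL/6NJ assembly of the deposited table), measured 66.1, 47.2 and 46.1 CPM in Control, 207, 42.6 and 37.0 CPM in ConA and 59.6, 38.1 and 37.1 CPM in MSA_ConA 1, 2 and 3. Wars, the tryptophan enzyme (chr12:114435691-114470339), measured 30.1, 20.2 and 24.5 CPM in Control, 111, 24.7 and 21.6 CPM in ConA and 25.6, 22.1 and 22.8 CPM in MSA_ConA. Yars, the tyrosine enzyme (chr4:136014538-136049138), measured 36.4, 37.1 and 39.7 CPM in Control, 96.5, 37.0 and 35.0 CPM in ConA and 16.1, 38.7 and 38.7 CPM in MSA_ConA. For these 3 genes ConA 1 was far above the other 8 libraries, and Yars alone was also far below them in MSA_ConA 1. The ConA effect was greater in number 1 by 1.88 (SE 0.24, adjusted p = 0.0021 by edgeR) for Vars, by 1.84 (SE 0.27, adjusted p = 0.0033 by edgeR) for Wars and by 1.5 (SE 0.22, adjusted p = 0.0036 by edgeR) for Yars. These calls held under all 11 alternatives run for this comparison, library totals and the 7 libraries left out singly included; Control 1 and ConA 1, on which the effect in number 1 rests, could not be left out. Between single libraries, Wars in ConA 1 was 3.71 times its level in Control 1 (95% interval 3.30 to 4.16, for counting error only), Vars 3.14 times (2.90 to 3.4) and Yars 2.65 times (2.38 to 2.96).

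**Figure D3:**
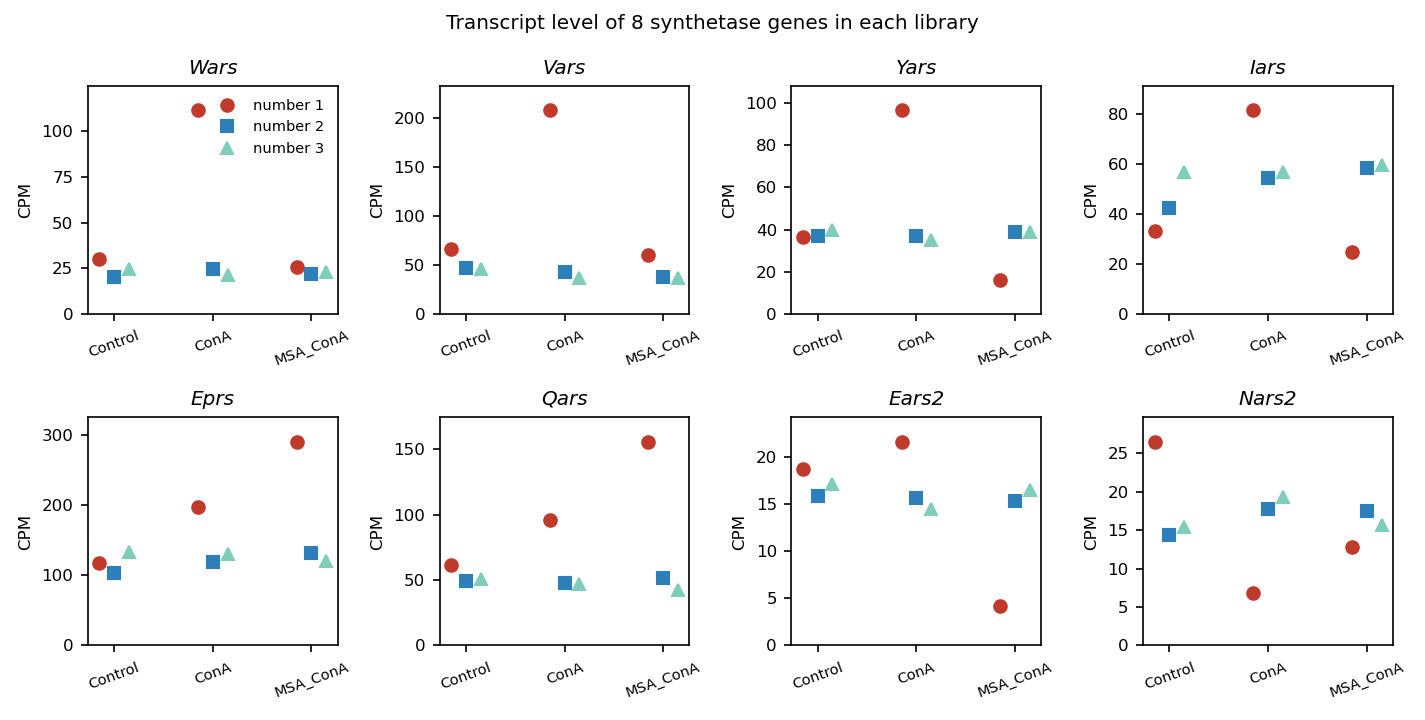
CPM (linear axis from 0) of 8 synthetase genes in each library, by group, with symbols for the library number. Wars, Vars, Yars and Iars are highest in ConA 1, Eprs and Qars in MSA_ConA 1, Ears2 is lowest in MSA_ConA 1 at 4.22 CPM, and Nars2 is lowest in ConA 1 at 6.80 CPM.

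The other cytosolic enzymes outside the complex moved less. Farsa, the catalytic subunit of the phenylalanine enzyme, measured 43.5, 30.6 and 26.0 CPM in Control, 73.8, 26.0 and 18.6 CPM in ConA and 47.6, 20.3 and 22.1 CPM in MSA_ConA. Hars, the histidine enzyme, measured 29.2, 28.1 and 33.3 CPM in Control, 57.8, 32.4 and 25.4 CPM in ConA and 30.7, 25.3 and 26.5 CPM in MSA_ConA. Sars, the serine enzyme, measured 90.4, 58.4 and 62.9 CPM in Control, 149, 52.0 and 52.2 CPM in ConA and 80.3, 56.1 and 55.7 CPM in MSA_ConA. ConA 1 was the highest library for all 3, and number 1 exceeded numbers 2 and 3 in every group for Farsa and Sars. Their differences of the ConA effect were 1.10 (SE 0.33), 1.07 (SE 0.29) and 0.94 (SE 0.23), with adjusted p = 0.040, 0.029 and 0.020 by edgeR, and none of them passed with library totals. Tars, the threonine enzyme, measured 99.8, 63.6 and 88.0 CPM in Control, 199, 78.0 and 84.4 CPM in ConA and 65.4, 96.3 and 80.5 CPM in MSA_ConA. Gars measured 72.9, 58.9 and 58.3 CPM in Control, 112, 61.1 and 59.96 CPM in ConA and 56.2, 59.7 and 64.8 CPM in MSA_ConA. Both were highest in ConA 1, but neither difference passed, at 0.90 (SE 0.33, adjusted p = 0.078 by edgeR) and 0.57 (SE 0.23, adjusted p = 0.093 by edgeR).

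In the multisynthetase complex, 2 of 8 genes were called higher, against 15.7% of all genes, and all 8 differences were above zero (median 0.69). Kars measured 71.5, 47.6 and 62.5 CPM in Control, 187, 60.3 and 56.8 CPM in ConA and 89.4, 54.0 and 56.5 CPM in MSA_ConA. Iars, the isoleucine enzyme, measured 33.3, 42.4 and 56.9 CPM in Control, 81.4, 54.5 and 56.9 CPM in ConA and 24.7, 58.6 and 59.7 CPM in MSA_ConA. Kars was therefore highest in number 1 within every group, whereas Iars in number 1 was the lowest of its group in Control and MSA_ConA and the highest in ConA. The differences were 1.30 (SE 0.29, adjusted p = 0.015 by edgeR) for Kars and 1.13 (SE 0.29, adjusted p = 0.026 by edgeR) for Iars, and neither passed with library totals. Of the complex's 3 scaffold genes, Eef1e1 was called higher, at 25.6 CPM in ConA 1 against 7.53 to 14.1 CPM elsewhere, and Aimp1 and Aimp2 were not called.

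The mitochondrial genes that differed were lower in ConA 1. Nars2, the mitochondrial asparagine enzyme (chr7:103502247-103628973), measured 26.5, 14.3 and 15.5 CPM in Control, 6.80, 17.8 and 19.3 CPM in ConA and 12.8, 17.5 and 15.6 CPM in MSA_ConA. Rars2, the arginine enzyme, measured 12.5, 14.7 and 16.6 CPM in Control, 4.85, 16.5 and 17.4 CPM in ConA and 11.4, 17 and 15 CPM in MSA_ConA. ConA 1 was the lowest of all 9 libraries for Nars2 and Rars2. The differences of the ConA effect were -2.28 (SE 0.28, adjusted p = 0.0019 by edgeR) for Nars2 and -1.48 (SE 0.31, adjusted p = 0.012 by edgeR) for Rars2. Cars2 (-1.33, SE 0.29, adjusted p = 0.014 by edgeR) and Hars2 (-0.995, SE 0.24, adjusted p = 0.018 by edgeR) were also called. Nars2, Rars2 and Cars2 held under all 11 alternatives. In ConA 1 these genes rested on 50 to 163 counts, and Nars2 was 3.90-fold lower than in Control 1 (95% interval 3.01 to 5.11, for counting error only). Control 1, at 26.5 CPM, was the highest of all 9 libraries for Nars2. This fold and the difference of -2.28 therefore rest on Control 1 as well as on ConA 1. The gene models of Hars and Hars2 overlap by 198 bases on opposite strands, and those of Cars2 and Carkd by 940. Further members overlap protein-coding genes on the opposite strand. Among these are Mars with Ddit3 (68 bases), Yars with C77080 (30), Iars2 with Rab3gap2 (2034) and Farsb with Sgpp2 (2439). Whether reads were counted by strand is not given in the sources used here, so reads in those stretches cannot be assigned to one gene.

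Another 16 members are given by their range over the 9 libraries. Aars, the alanine enzyme and the most counted member, lay between 231 and 511 CPM, with its highest level in ConA 1. Rars (33.8 to 72.8 CPM), Mars (56.1 to 112 CPM), Lars (30.3 to 43.3 CPM) and Nars (86.4 to 118 CPM) were also highest there. Farsb was highest in MSA_ConA 1 (27.2 to 44.1 CPM), and Dars, the aspartate enzyme, was lowest there (36.3 to 80.2 CPM). Among mitochondrial members, Hars2 (15.8 to 44.4 CPM), Cars2 (6.80 to 16.6 CPM) and Lars2 (9.32 to 17.7 CPM) were lowest in ConA 1. Wars2 (5.94 to 11.3 CPM), Vars2 (15.7 to 31.5 CPM) and Yars2 (12.7 to 20.2 CPM) were lowest in MSA_ConA 1. Tars2 (28.7 to 55.7 CPM), Fars2 (23.3 to 41.8 CPM) and Iars2 (44.4 to 77.8 CPM) had their lowest value in neither.

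For 14 amino acids a single cytosolic gene and a single mitochondrial gene were set as partners, which allows a comparison inside a library, free of scaling. Glutamate and proline, which share Eprs, and phenylalanine, with the subunit genes Farsa and Farsb, were left out. The log2 ratio of cytosolic to mitochondrial partner was higher in ConA 1 than in Control 1 for 13 of the 14 pairs, with a median change of 1.29. The widest were Wars over Wars2 (1.64 in Control 1 and 4.19 in ConA 1), Nars over Nars2 (2.02 and 4.12) and Vars over Vars2 (1.07 and 3.14). Mars over Mars2 was the exception, at 4.99 in Control 1 and 4.37 in ConA 1. In MSA_ConA 1 the ratio exceeded that of Control 1 for 8 of 14 pairs, with a median change of 0.22. For Wars over Wars2 the 6 libraries numbered 2 and 3 had ratios from 1.00 to 1.46, all below the 3 numbered 1.

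**Figure D4:**
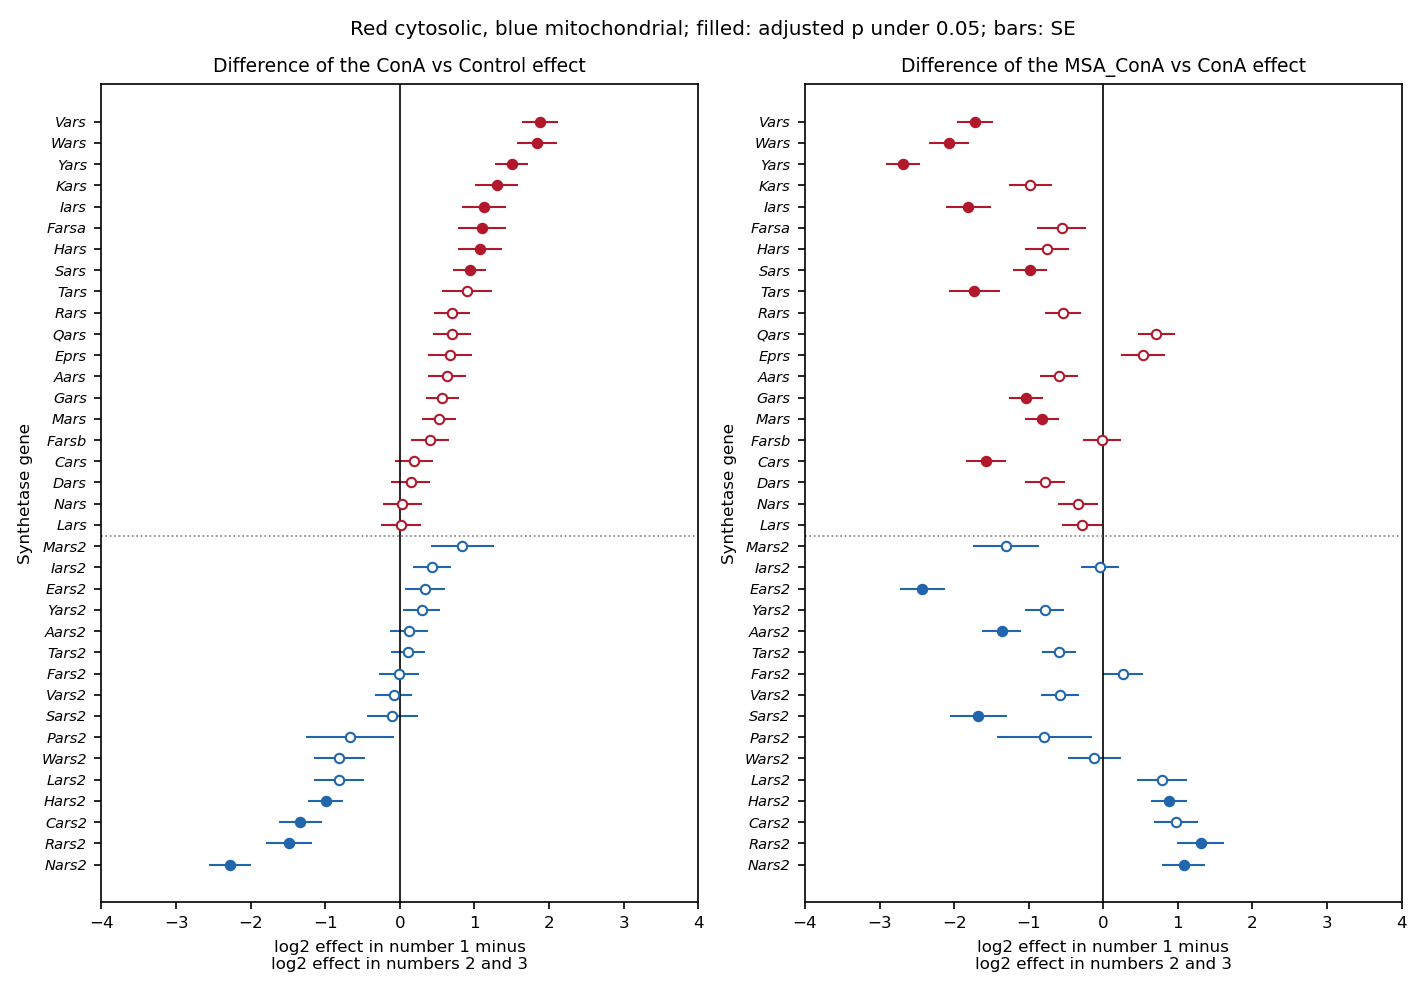
Difference of a log2 effect between library number 1 and numbers 2 and 3 for single synthetase genes, for ConA against Control (left) and MSA_ConA against ConA (right); bars are SE, red is cytosolic, blue is mitochondrial, and filled points passed an adjusted p of 0.05. On the left, the 8 filled red points lie above zero and the filled blue points below it; on the right, 12 filled points lie below zero and the 3 above it are Hars2, Nars2 and Rars2.

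For MSA_ConA against ConA, which shares the ConA libraries with the comparison before it, 12 synthetases were lower in number 1 (background 10.1% of genes) and 3 were higher (8.59%). Of the 12, 9 were cytosolic and 3 mitochondrial, and all 3 higher genes were mitochondrial. The median difference was -0.80 over the 20 cytosolic genes and -0.24 over the 17 mitochondrial ones, against -0.01 over all genes. With library totals the calls were 18 lower and 1 higher, and over all genes 2047 lower and 762 higher in place of 1469 and 1255. Left out singly, ConA 2 and ConA 3 each gave 8 calls and MSA_ConA 3 gave 9, all lower.

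Yars had the widest difference, -2.69 (SE 0.23, adjusted p = 0.00083 by edgeR), and was 6.00-fold lower in MSA_ConA 1 than in ConA 1 (95% interval 4.96 to 7.30, for counting error only). Wars followed among cytosolic genes at -2.07 (SE 0.27, adjusted p = 0.0041 by edgeR), then Iars at -1.81, Tars at -1.73, Vars at -1.72 and Cars at -1.57. Wars and Vars in MSA_ConA 1 stood at 0.852 and 0.902 of their levels in Control 1, with intervals that include 1 (0.714 to 1.01 and 0.803 to 1.01), whereas Yars stood at 0.442 (0.360 to 0.540). These intervals cover counting error only, and with library totals Wars and Vars stood at 0.512 (0.429 to 0.609) and 0.542 (0.483 to 0.608), so that their closeness to Control 1 depended on TMM. Cars, the cysteine enzyme, measured 44.0, 40.02 and 34.1 CPM in Control, 48.1, 35.7 and 35.2 CPM in ConA and 15.2, 35.5 and 31.1 CPM in MSA_ConA, so that MSA_ConA 1 was the single library apart. Gars (-1.04), Sars (-0.99) and Mars (-0.82), the last being the methionine enzyme, were the remaining cytosolic calls, and none of these 3 held in every alternative.

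Ears2, the mitochondrial glutamate enzyme (chr7:131081021-131111558), was the lowest mitochondrial member in this comparison, with a difference of -2.42 (SE 0.30, adjusted p = 0.0032 by edgeR). It measured 18.6, 15.8 and 17.1 CPM in Control, 21.6, 15.6 and 14.5 CPM in ConA and 4.22, 15.3 and 16.5 CPM in MSA_ConA. Sars2, the serine enzyme, measured 16.0, 15.2 and 13.5 CPM in Control, 12.4, 11.9 and 11.9 CPM in ConA and 3.56, 9.42 and 12.4 CPM in MSA_ConA. Aars2, the alanine enzyme, measured 35.6, 18.1 and 18.9 CPM in Control, 32, 14.8 and 15.9 CPM in ConA and 11.9, 13.7 and 15.5 CPM in MSA_ConA. All 3 were lowest in MSA_ConA 1, where they rested on 32, 27 and 90 counts. Ears2 and Ubfd1 overlap by 89 bases on opposite strands. The genes above zero were Rars2 (1.31), Nars2 (1.08) and Hars2 (0.88).

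Against Control, MSA_ConA differed between number 1 and the others for 2 synthetases higher (background 16.0% of genes) and 7 lower (16.6%). Higher calls were thus rarer among synthetases than over all genes, and lower calls about as frequent. The 2 higher genes were Eprs and Qars, both of the multisynthetase complex. Eprs (chr1:198224248-198299488) measured 117, 103 and 133 CPM in Control, 197, 119 and 130 CPM in ConA and 290, 133 and 121 CPM in MSA_ConA. Qars, the glutamine enzyme (chr9:113483196-113491424), measured 61.7, 49.1 and 50.6 CPM in Control, 95.8, 47.9 and 47.2 CPM in ConA and 155, 51.5 and 42.7 CPM in MSA_ConA. Number 1 was thus highest in MSA_ConA, next in ConA and lowest in Control for both. The libraries numbered 2 had the same order for Eprs but not for Qars. The differences were 1.20 (SE 0.29, adjusted p = 0.020 by edgeR) and 1.41 (SE 0.25, adjusted p = 0.0066 by edgeR). Among the lower genes were Ears2 (-2.09), Sars2 (-1.77), Cars (-1.38), Aars2 (-1.24), Nars2 (-1.20) and Yars (-1.19). Apart from library totals, Qars was called under every alternative run for this comparison, but Eprs and Nars2 were not. With library totals, which move the median of all genes by -0.81, no synthetase was higher and 26 were lower, with 956 genes higher and 5227 lower in place of 2342 and 2425, so that Eprs and Qars were not called.

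By the size of the change between single libraries numbered 1, at least 2-fold on CPM + 1, 5 synthetases were higher in ConA 1 than in Control 1 (Iars, Kars, Vars, Wars and Yars; background 18.3%) and 4 lower (Cars2, Nars2 and Rars2 among them; 17.6%). Between MSA_ConA 1 and ConA 1, 1 was higher (Rars2; 11.5%) and 11 lower (15.3%). Between MSA_ConA 1 and Control 1, 2 were higher (Eprs and Qars; 15.9%) and 7 lower (18.4%). With library totals the counts were 2 higher and 5 lower for the first pair, 0 and 15 for the second and 0 and 19 for the third, where 1026 genes were higher and 4768 lower. These comparisons have no replicate check.

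Some synthetases already differed between the untreated libraries, with higher calls about as frequent as over all genes and lower calls less so. Control 1 exceeded Control 2 and 3 for 5 genes (background 12.1%) and was below them for 1 (15.7%). Aars2 led at 0.94 (SE 0.17, adjusted p = 0.0093 by edgeR), and the higher genes included Nars2 (0.83), Tars2 (0.77) and Sars (0.58), and only Aars2 was called under all 12 alternatives. Mars2, the mitochondrial methionine enzyme, was the lower one at -1.24 (SE 0.32, adjusted p = 0.026 by edgeR). It measured 2.46, 5.54 and 6.09 CPM in Control, 5.44, 7.02 and 7.33 CPM in ConA and 1.98, 6.04 and 6.91 CPM in MSA_ConA, with number 1 lowest in each group. Pars2, the proline enzyme, was the least counted, at 4.85, 3.34 and 4.58 CPM in Control, 3.20, 4.70 and 3.64 CPM in ConA and 1.72, 4.60 and 3.15 CPM in MSA_ConA, with only 13 counts in MSA_ConA 1, and it was called in no comparison with TMM scaling, but was among the lower calls for MSA_ConA against Control with library totals. Without Control 3, Aars2 was the only member called. With library totals 3 were higher and 5 lower, and over all genes 1036 higher and 3627 lower in place of 1774 and 2288.

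Over all groups, number 1 exceeded numbers 2 and 3 for 8 synthetases (background 19.1%) and was below them for 3 (19.2%). Higher calls were thus about as frequent as over all genes, and lower calls less so. The higher ones were Vars (1.26), Farsa (1.19), Qars (1.05), Kars (0.95), Sars (0.89), Tars2 (0.65), Rars (0.62) and Aars (0.59), and the lower ones Mars2 (-1.06), Hars2 (-0.75) and Dars (-0.63). This contrast depended on the scaling. With library totals, which move the median of all genes by -0.71, none was higher and 9 were lower, with 1083 genes higher and 5449 lower in place of 2785 and 2807. Counts of members called also fell to 7 without ConA 1 or Control 2, to 6 without MSA_ConA 2 or MSA_ConA 3, to 4 without ConA 2 and to 3 without ConA 3.

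Genes linked to the synthetases were read from lists in the same tests. Of 27 tested ATF4 target genes, which exclude the synthetases, 15 were higher and 1 lower in the difference of the ConA effect, with a median of 2.00 against -0.09 over all genes, of which 15.7% were higher and 15.4% lower. Atf4 itself measured 219, 109 and 84.6 CPM in Control, 373, 85.3 and 73.8 CPM in ConA and 603, 63.2 and 74.3 CPM in MSA_ConA, so it was highest in MSA_ConA 1. In the difference of the MSA_ConA against Control effect, 11 of the 27 targets were higher (background 16.0%) and 3 lower (16.6%), with a median of 0.73 against -0.12 over all genes. The 5 synthetases printed with TGATGNAA stood above Control 1 in ConA 1, at 1.37 times its level for Aars, 1.53 for Gars, 2.00 for Tars, 2.45 for Iars and 2.65 for Yars, although with library totals Aars was at 0.968. In MSA_ConA 1 all 5 stood below Control 1 with either scaling, at 0.442 of its level for Yars, 0.656 for Tars, 0.742 for Iars, 0.771 for Gars and 0.820 for Aars. The other searched cytosolic genes (Dars, Eprs, Farsa, Farsb, Kars, Mars, Qars and Sars) stood above Control 1 in ConA 1 with TMM. Their ratios ran from 1.33 for Dars to 2.62 for Kars, so this rise was not particular to genes with the element. In MSA_ConA 1, Dars (0.898), Mars (0.730) and Sars (0.889) stood below Control 1 and the others above it. With library totals, only Eprs and Qars stayed above it. Whether the element bears on these levels was not tested. The ATF4 target Gdf15, a stress cytokine, measured 2150 CPM in ConA 1, 62.4 CPM in MSA_ConA 1 and 9.02 CPM in Control 1, against at most 5.01 CPM in the other 6. Ddit4, an inhibitor of mTORC1, measured 486, 219 and 11.9 CPM in the same 3 libraries. In the difference of the MSA_ConA against ConA effect, 20 of the 27 targets were below zero and 7 above, with a median of -0.72 against -0.01 over all genes.

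Of 10 genes for eIF2α kinases, phosphatases and their partners, which act upstream of ATF4, 3 were higher and 0 lower in the difference of the ConA effect. The shares over all genes, 15.7% higher and 15.4% lower, are the background for this and the next 3 lists. The 3 were Ppp1r15a (4.34), the stress-induced eIF2α phosphatase subunit, Gcn1l1 (1.14) and the amino acid sensor Eif2ak4 (1.13). Of 12 further tRNA charging and editing factors, 5 were lower and 0 higher (median -0.93), among them Pstk (-3.68) and Sepsecs (-1.57) of selenocysteine synthesis, Prorsd1 (-1.20) and Gatb (-0.78), a subunit of the mitochondrial enzyme that makes glutaminyl-tRNA. Of 12 mitochondrial translation factors, 5 were lower and 0 higher (median -0.64), with the initiation factors Mtif2 (-2.21) and Mtif3 (-1.44) leading. Of 7 cytosolic elongation factors, 3 were higher, Eef2 (2.69), Eif5a (1.37) and Eef1b2 (1.17), and 1 was lower, the methyltransferase gene Eef1akmt1 (-2.26). Aimp2 fell in the other comparison, with a difference of the MSA_ConA against ConA effect of -3.22 and 1.58 CPM in MSA_ConA 1 against 8.81 to 14.8 CPM elsewhere.

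Of 19 tested interferon gamma-induced genes, 15 were higher and 0 lower in the difference of the ConA effect (median 3.64), against 15.7% higher over all genes. In that of MSA_ConA against ConA 16 were lower and 0 higher (median -5.15), against 10.1% lower over all genes. Cxcl10, a T cell-attracting chemokine, reached 3517 CPM in ConA 1, while no other library exceeded 13.9 CPM, and the transcription factor Irf1 measured 1749 CPM against at most 47.7 CPM. The library in which Wars was high was thus also the one with high Cxcl10 and Irf1, and a link between them was not tested.

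Summed levels of several other cell markers also stood apart in ConA 1. The summed level of 10 neutrophil markers was 472 CPM in ConA 1 and 63.7 CPM in MSA_ConA 1, against 2.73 to 9.69 CPM in the others. That of 6 cholangiocyte markers was 784 CPM in ConA 1 against 48.9 to 116 CPM, and that of 12 T and NK cell markers 45.7 CPM against 4.09 to 8.28 CPM. That of 6 monocyte and recruited macrophage markers was 53.5 CPM in ConA 1 against 14.5 to 19.4 CPM, with 2 of them at 0 in ConA 1. Single genes did not all follow these sums. In the difference of the ConA effect, 2 of 4 tested monocyte markers were above zero and 2 below (median -0.24). Of 5 tested T and NK cell markers, 3 were above zero and 2 below (median 2.92). Sinusoidal endothelial markers were lowest in MSA_ConA 1 and ConA 1 (180 and 197 CPM, against 305 to 383 CPM), and stellate cell markers ranged from 181 CPM in MSA_ConA 1 to 871 CPM in MSA_ConA 3. Kupffer cell markers (236 to 554 CPM) and B and plasma cell markers (5.24 to 11.9 CPM) were both highest in Control 1, and the B and plasma cell sum was lowest in ConA 1. The 9 hepatocyte markers measured summed levels of 106397 to 131667 CPM in 8 libraries and 213355 CPM in MSA_ConA 1, and the 14 skeletal muscle markers reached 4941 CPM in MSA_ConA 3 against at most 403 CPM in the rest. All these marker sums use TMM. Its factors of 0.571 in MSA_ConA 1 and 0.674 in ConA 1 raise levels there above those by library totals. Marker sums with library totals were not compared, so the high hepatocyte sum in MSA_ConA 1 cannot be told apart from the scaling. In whole liver RNA, fewer cells of a type and less RNA per cell cannot be told apart, and the part of these cells in the synthetase levels was not tested. Control 1, ConA 1 and MSA_ConA 1 were alike in Xist (0.07, 0.49 and 0.13 CPM) and Nnt (30.2, 34.7 and 29.8 CPM). With only 1 library per group numbered 1, treatment response and variation of a single mouse cannot be told apart among these 3. A response that differs with sex or strain cannot be told apart from any other difference between number 1 and numbers 2 and 3.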

How the data were processed

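For 9 liver libraries, raw counts by gene and FPKM (counts per gene length and library total) were deposited by the authors as 2 tables. Per the labels' protocols, RNA was taken with Trizol and libraries were made from total RNA with an Illumina kit. Per the submitters' processing notes, the aligner Bowtie 0.12.2 and 2 genome builds, mm8 and mm10, appear without a role. How reads were counted, and whether by strand, is not given in the sources used here. Gene coordinates are those of the C57BL/6NJ assembly in the deposited table. Columns headed M were taken as MSA_ConA.

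The deposited counts were tested in R 4.3.3 with the quasi-likelihood method of edgeR 4.0.16 after TMM scaling. Its filterByExpr defaults kept 14603 genes, all 37 synthetases among them, and p-values were adjusted by Benjamini-Hochberg over all genes tested, with 0.05 as the threshold. P-values of the group comparisons measure the spread between the 3 livers per group that the labels give, and those of Control 1 against Control 2 and 3 and of effects differing with library number only the spread between libraries numbered 2 and 3 of a group. Alternatives were DESeq2 1.42.0, relative log expression factors or library totals for TMM, no filter, a filter keeping genes with 1 CPM or more in 3 libraries or more, fits limited to the compared groups, a block for library number, limma 3.58.1 on log2(FPKM + 1) of the deposited values, libraries numbered 2 and 3 only, and leaving out each library in turn. Ratios of single libraries have exact 95% intervals for counting error only. Scripts were tested on simulated data.

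The members and the 17 lists were chosen with earlier results of these data known, and library number 1 was set against 2 and 3 for the same reason. Of 189 list entries, 181 matched a gene in the table. Levels in every library are given for the 12 cytosolic and 8 mitochondrial members of widest log2 range, and for Kars and Gars. From each pathway list up to 4 genes of smallest p in the difference of the ConA effect are named, plus Atf4, Irf1 and Cxcl10. Values of 1 member and of 1 list gene are not reported here singly, and are left out of the plots by gene. Same-numbered libraries deviated together from their group means. The lowest correlation across genes was 0.489, 0.364 and 0.337 for numbers 1, 2 and 3, each over the bound of 0.1. Numbers 2 and 3 also correlated with each other (0.332 to 0.706). Since number 1 stood apart in every group, numbers 2 and 3 both deviated away from it. The bound therefore cannot show that numbers 2 or 3 pair libraries, and a block for library number was only an alternative. No 2 libraries of a group agreed within counting noise.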

Additional observations from a re-analysis of the deposited data

Results flagged for a closer look

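Effects that differed between library number 1 and numbers 2 and 3, by edgeR's test of the difference itself, are listed as log2 values, number 1 minus the others. Each rests on 1 library per group numbered 1. For ConA against Control they were -2.28 for Nars2, -1.48 for Rars2, -1.33 for Cars2 and -0.995 for Hars2 on the lower side. On the higher side they were 0.94 for Sars, 1.07 for Hars, 1.10 for Farsa, 1.13 for Iars, 1.30 for Kars, 1.5 for Yars, 1.84 for Wars and 1.88 for Vars.

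For MSA_ConA against ConA the lower ones were -2.69 for Yars, -2.42 for Ears2, -2.07 for Wars, -1.81 for Iars, -1.73 for Tars, -1.72 for Vars, -1.67 for Sars2, -1.57 for Cars, -1.36 for Aars2, -1.04 for Gars, -0.99 for Sars and -0.82 for Mars. The higher ones were 0.88 for Hars2, 1.08 for Nars2 and 1.31 for Rars2. For MSA_ConA against Control they were -2.09 for Ears2, -1.77 for Sars2, -1.38 for Cars, -1.24 for Aars2, -1.20 for Nars2, -1.19 for Yars, 1.20 for Eprs and 1.41 for Qars.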

How the results depend on the processing

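The replicate block called 0 genes and 0 synthetases in each of the 3 group comparisons and changed no call. DESeq2 called 2 genes for ConA against Control and 55 for MSA_ConA against Control (0 by edgeR). In numbers 2 and 3 alone it called 90 and 9 genes for ConA against Control and MSA_ConA against ConA. There edgeR without a filter on low counts called 308 and 290 (0 with its default filter). No synthetase was among any of these genes. With library totals, 26 synthetases were called in the difference of the MSA_ConA against Control effect, the Control mitochondrial level was 113 CPM per kb in place of 105, and the median log2 ratios between single libraries became 0.19 cytosolic and -0.91 mitochondrial for ConA 1 over Control 1, -1.14 and -0.52 for MSA_ConA 1 over ConA 1, and -0.90 and -1.32 for MSA_ConA 1 over Control 1, in place of 0.69, -0.42, -0.90, -0.28, -0.16 and -0.59. Summed levels of single libraries moved more, to 186 CPM per kb cytosolic and 44.8 mitochondrial in MSA_ConA 1, in place of 326 and 78.5. Library totals also turned Aars (-0.12), Rars (-0.10) and Tars2 (-0.050) in the contrast of number 1. Group effects that passed no test changed sign. Over left-out libraries, the log2 effect of ConA against Control ran from -0.049 to 1.01 for Kars, -0.418 to 1.21 for Vars, -0.107 to 1.43 for Wars and -0.069 to 0.804 for Yars, and that of MSA_ConA against ConA from -0.890 to 0.177 for Kars, -1.47 to 0.167 for Vars and -1.53 to 0.011 for Wars, each changing sign without ConA 1. MSA_ConA against Control ran from -0.195 to 0.919 for Qars, changing sign without MSA_ConA 1. In numbers 2 and 3 alone Vars was -0.244 and Yars -0.109 for ConA against Control, Yars 0.123 for MSA_ConA against ConA and Qars -0.079 for MSA_ConA against Control. Leaving out single libraries gave 4016 to 8145 genes and 3 to 16 synthetases for number 1 against the others, 1340 to 4238 and 1 to 6 for Control 1, 3071 to 4659 and 6 to 13 for the difference of the ConA effect, 1368 to 2649 and 8 to 15 for MSA_ConA against ConA, and 3646 to 4730 and 8 to 9 for MSA_ConA against Control. In numbers 2 and 3 alone it gave 0 to 19 and 0 to 161 genes and 0 synthetases, and in the group comparisons 0 of both. The cause of these changes was not tested. Depth limits Pars2, Mars2, Sars2 and Ears2, which had 13, 15, 27 and 32 counts in MSA_ConA 1.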
